A study of Mus musculus with 22 samples.

Results

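The genes described here encode the Runx transcription factors and the proteins that work with them. The set was chosen by name and has 7 members of the 21911 protein-coding genes annotated: Runx1, Runx2 and Runx3, the DNA-binding subunits of core-binding factor; Cbfb, their shared non-DNA-binding partner; and Cbfa2t2, Cbfa2t3 and Runx1t1, the ETO family of corepressors, 1 of which (Runx1t1) is fused to RUNX1 by a recurrent translocation of acute myeloid leukaemia. Every H3K27ac peak that overlapped a member's gene body or lay within 50 kb of it was counted, and peaks that overlapped between libraries by at least 1 bp were merged, which gave 127 merged regions at the members of 34595 in the genome.

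H3K27ac, acetylation of lysine 27 of histone H3, marks active promoters and enhancers. It was measured by ChIP-seq in KL cells, the myeloid progenitors of bone marrow, which lack lineage markers and Sca1 and carry cKit. The 3 libraries, called replicates 1, 2 and 3, came from male C57BL/6 mice of the genotype scl-Cre-ERT +; Bcorfl/y, which received 1 mg tamoxifen per day on 5 days at an age of 3 to 6 months and were sampled 20 weeks later. In these mice a Cre-ERT driven by a stem cell enhancer of Scl removes exons 9 and 10 of Bcor (BcorΔE9-10). Bcor is an X-linked subunit of a Polycomb repressive complex. Only cells descended from recombined stem cells therefore carry the deletion. The 3 libraries form the only group with peaks analysed here, of 22 samples in 11 groups, and no library of BcorWT cells was among them. All values therefore describe mutant cells, and none is an effect of the deletion.

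Runx proteins bind a short DNA element as heterodimers with Cbfb, which raises their affinity for it. Runx1 is needed for the emergence of blood stem cells and for myeloid and megakaryocytic maturation, Runx3 acts in lymphoid and myeloid cells, and Runx2 is the master regulator of osteoblasts. Each Runx gene is transcribed from a distal promoter (P1) and a proximal promoter (P2), which give proteins with different amino termini, and an intronic enhancer about 23 kb downstream of the Runx1 P1 is known for activity in haematopoietic stem cells. Cbfa2t2, Cbfa2t3 and Runx1t1 do not bind DNA themselves and bring nuclear corepressors and histone deacetylases to E-box and other factors. In bulk chromatin, fewer cells with the mark and less of the mark per cell cannot be told apart.

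The sequences of the alternative promoters are shown first, since the promoters are compared below. Each run is the 250 bases before the most upstream protein-coding start of that promoter, read 5′ to 3′ on the gene's strand from the RefSeq genome sequence of GRCm38, and capitals mark CG pairs and matches to the RUNX motif (TGTGGT or ACCACA on either strand). The windows lie at chr16:92826150-92826399 and chr16:92697329-92697578 (Runx1, minus strand), chr17:44814798-44815047 (Runx2, minus strand), chr4:135120402-135120651 and chr4:135152246-135152495 (Runx3, plus strand), and chr8:105170424-105170673 (Cbfb, plus strand).
Runx1 P1: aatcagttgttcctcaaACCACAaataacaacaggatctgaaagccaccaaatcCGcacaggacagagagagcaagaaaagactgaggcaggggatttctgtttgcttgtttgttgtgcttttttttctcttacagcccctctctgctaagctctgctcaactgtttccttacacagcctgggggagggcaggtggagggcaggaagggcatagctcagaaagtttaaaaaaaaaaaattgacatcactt
Runx1 start at +128.8 kb: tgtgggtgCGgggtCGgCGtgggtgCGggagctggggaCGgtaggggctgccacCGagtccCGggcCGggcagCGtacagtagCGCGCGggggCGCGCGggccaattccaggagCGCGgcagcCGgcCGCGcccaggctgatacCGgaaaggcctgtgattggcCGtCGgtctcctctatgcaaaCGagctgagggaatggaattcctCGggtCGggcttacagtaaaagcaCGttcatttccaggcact
Runx2 P1: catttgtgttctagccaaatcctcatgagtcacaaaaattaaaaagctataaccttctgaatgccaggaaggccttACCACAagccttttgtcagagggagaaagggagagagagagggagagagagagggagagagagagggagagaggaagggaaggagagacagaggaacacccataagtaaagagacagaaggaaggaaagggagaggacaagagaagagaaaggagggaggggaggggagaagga
Runx3 P1: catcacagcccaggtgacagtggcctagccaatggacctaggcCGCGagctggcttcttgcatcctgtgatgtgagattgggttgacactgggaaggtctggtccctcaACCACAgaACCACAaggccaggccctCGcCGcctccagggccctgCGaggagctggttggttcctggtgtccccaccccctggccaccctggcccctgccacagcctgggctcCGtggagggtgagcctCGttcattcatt
Runx3 P2: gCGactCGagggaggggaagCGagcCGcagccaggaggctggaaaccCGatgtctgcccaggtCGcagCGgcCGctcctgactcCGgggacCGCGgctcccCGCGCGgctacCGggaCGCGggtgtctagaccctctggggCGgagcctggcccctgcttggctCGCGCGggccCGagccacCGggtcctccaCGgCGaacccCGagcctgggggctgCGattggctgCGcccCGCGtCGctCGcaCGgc
Cbfb: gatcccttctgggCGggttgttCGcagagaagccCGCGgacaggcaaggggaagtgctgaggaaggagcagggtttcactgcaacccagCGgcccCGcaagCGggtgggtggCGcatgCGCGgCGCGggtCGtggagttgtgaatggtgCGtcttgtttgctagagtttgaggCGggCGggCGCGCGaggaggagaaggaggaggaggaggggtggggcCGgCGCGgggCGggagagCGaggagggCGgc

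The P1 windows held 1 CG pair in Runx1, 0 in Runx2 and 7 in Runx3. The start at +128.8 kb of Runx1 held 27, the Runx1 starts at 130.0 kb 5 and the Runx3 P2 33, so proximal starts were not all rich in CG pairs. The Cbfb window held 25. Over 32851 promoter windows of the same length in the RefSeq table for GRCm38, which had entries for 6 of the 7 members, the median was 6 CG pairs, with quartiles at 2 and 16. The RUNX motif stood in 3 of 3 P1 windows of the Runx genes, once in Runx1, once in Runx2 and 2 times in Runx3, where the matches ACCACAgaACCACA are 2 bases apart. It stood in 1 of the other 13 promoter windows of the members, that of the most downstream start of Runx1t1, and in 14.0% of the RefSeq windows. A match is a description of the letters and not a bound site.

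The sequence at the region taken as the +23 kb enhancer of Runx1 (22 to 25 kb downstream of P1) is shown because the region is compared with P1 below. It carried a peak in all 3 libraries with its summit 24.9 kb downstream of the P1 start (chr16:92800957-92801706) and a second peak in replicates 1 and 3 with its summit at 23.8 kb (chr16:92802160-92802480). Both lie in intron 2 of the transcript Runx1-201. The runs are 300 bases on the plus strand of GRCm38, centred on the strongest summit of the peak found in all 3 libraries (chr16:92801134-92801433) and on the stretch between the peaks (chr16:92801784-92802083), which was chosen after the peaks were seen. Capitals mark the RUNX motif, the GATA motif (GATAA or TTATC) and the ETS motif (GGAAG or CTTCC).
Runx1 summit at 24.9 kb: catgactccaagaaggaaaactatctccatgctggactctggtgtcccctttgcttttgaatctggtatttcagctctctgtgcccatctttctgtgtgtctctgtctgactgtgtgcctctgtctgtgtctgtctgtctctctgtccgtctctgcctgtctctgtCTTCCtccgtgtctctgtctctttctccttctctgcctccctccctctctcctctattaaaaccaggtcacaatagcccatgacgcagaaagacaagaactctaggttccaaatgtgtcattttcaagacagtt
Runx1 between the peaks: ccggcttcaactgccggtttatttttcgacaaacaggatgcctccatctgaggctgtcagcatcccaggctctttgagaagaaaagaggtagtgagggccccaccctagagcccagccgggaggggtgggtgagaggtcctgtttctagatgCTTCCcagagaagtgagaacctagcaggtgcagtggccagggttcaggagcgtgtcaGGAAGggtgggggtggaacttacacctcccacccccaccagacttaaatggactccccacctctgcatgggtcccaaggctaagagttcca

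The window at 24.9 kb held 1 ETS match and the window between the peaks 2. Neither held a RUNX or GATA match, and the whole 453 bp between the peaks (chr16:92801707-92802159) held 1 GATA and 0 RUNX matches. Across the genome, among 2460 distal regions found in all 3 libraries, 22.2% of 300-base windows at the summit held a RUNX match, 25.4% a GATA match and 74.5% an ETS match. No match says only that these letters are absent from the window.

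The libraries were of like size. They held 23410, 25963 and 23758 peaks in replicates 1, 2 and 3, from an estimated 18.0, 18.9 and 19.3 M reads (M, mega), and the weakest peaks rested on 8 to 9 fragments at the summit. The labelled cell type was checked with marker genes, counting a gene as marked where a peak came within 2.5 kb of a transcription start site (TSS) of any of its transcripts (a TSS-proximal peak). All 7 genes of myeloid progenitors were marked in each of the 3 libraries, from Kit (fold enrichment 9.77 ± 0.16, SD, n = 3) to Cd34 (5.02 ± 1.32). Of the mature myeloid genes 0 of 6 did (Ngp had a peak in replicate 2 alone), of the erythroid genes 0 of 4, of the genes of bone and stroma 0 of 5 and of the lymphoid genes 1 of 4, Cd5 (5.01 ± 0.90). Fold enrichment is the peak caller's ratio of the fragment pileup at a peak's summit to the number it expected there. A gene without a peak is below the caller's threshold, which does not show that the mark is absent.

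TSS-proximal peaks were present in all 3 libraries at 6 of the 7 members. The background is 43.9% of protein-coding genes (9623 of 21911). Cbfb stood highest, with fold enrichments of 14.2, 17.0 and 20.8 in replicates 1, 2 and 3 and 54, 67 and 63 fragments at the summit. Cbfa2t2 followed with 15.6, 13.6 and 17.9. These were the members above the median of 10.2 among all genes with such a peak, at percentiles 83.6 and 78.1.

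The 3 DNA-binding subunits stood below that median. Runx3 had 9.04, 8.44 and 11.4, Runx2 7.33, 6.39 and 8.66, and Runx1 6.22, 5.75 and 7.87, at percentiles 45.9, 28.8 and 21.5. Cbfa2t3 was lowest of the 6, with 4.78, 4.97 and 7.07 (percentile 12.4). The strongest peak was not always at the same promoter of a gene. For Runx3 it lay at P2 in replicates 1 and 2 and at P1 in replicate 3, where P2 had 11.1, and for Cbfa2t3 at the downstream start in replicates 1 and 3 and at the upstream start in replicate 2. Replicate 3 gave the highest value at each of the 6 genes, and its median over all peaks was also the highest (5.53 against 4.92 and 4.72), so values are compared within a library.

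The members were ordered by mean fold enrichment over the 3 libraries, and the log2 ratio of neighbouring genes was taken within each library. The order and the ratios come from the same values, so the ratios are not independent support for the order. Runx3, Runx2, Runx1 and Cbfa2t3 each stood below the gene before them in 3 of 3 libraries, by 0.71 ± 0.07 (Cbfa2t2 over Runx3), 0.37 ± 0.05 (Runx3 over Runx2), 0.18 ± 0.05 (Runx2 over Runx1) and 0.25 ± 0.12 (Runx1 over Cbfa2t3; mean ± SD, n = 3). Cbfb stood above Cbfa2t2 in 2 of 3 libraries (0.14 ± 0.24), so these neighbours did not differ beyond their spread. The exact two-sided sign-flip permutation test gave p = 0.25 for each of the 4 ordered pairs and p = 0.5 for Cbfb over Cbfa2t2 (0.3125 and 0.5 adjusted over the 5 pairs). With 3 libraries 0.25 is the smallest p this test can give, so no pair can pass a threshold of 0.05 by it.

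Runx1t1 had no peak in its gene, which spans 150.2 kb at chr4:13743436-13893649, or within 50 kb of it in any library. The background for this is 28.1% of protein-coding genes (6165 of 21911), and 36.4% (534 of 1468) among genes whose window is at least as long. The Runx1t1 start furthest upstream has 28 CG pairs in its 250 bases, within the range of the acetylated Runx3 P2 and Cbfb promoters.

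**Figure D1:**
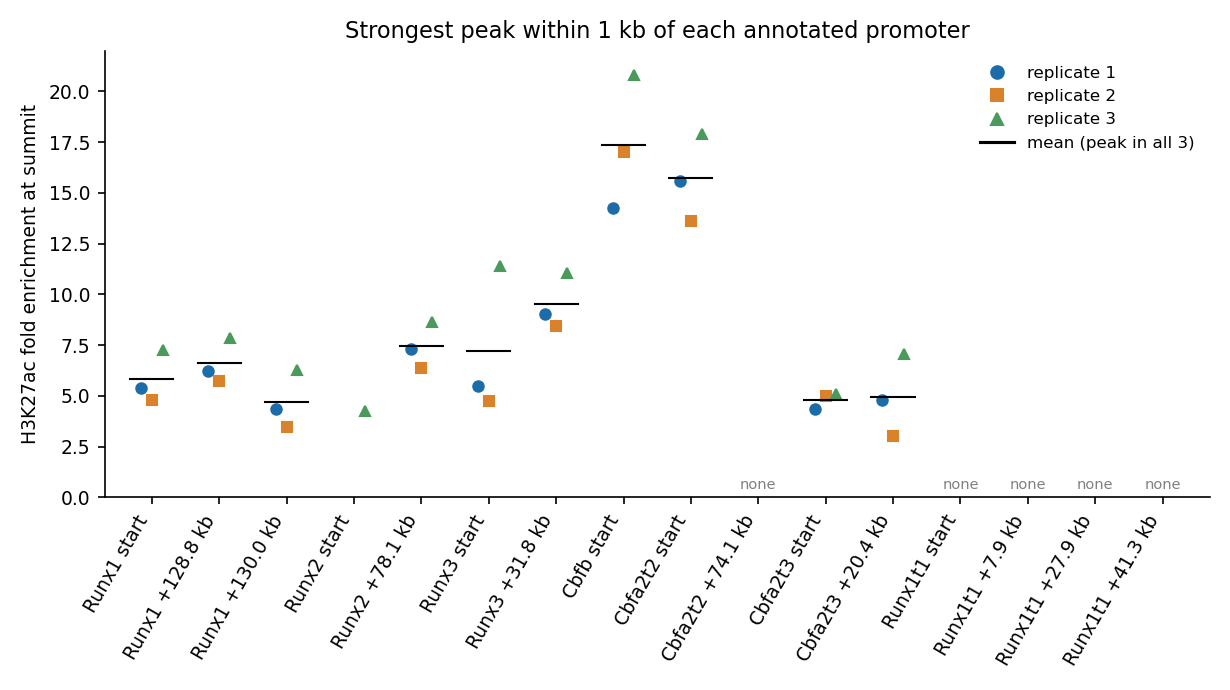
Fold enrichment (linear axis, from 0) of the strongest H3K27ac peak within 1 kb of each of the 16 annotated promoters of the 7 members, labelled by distance from the gene's most upstream start. Points are the 3 libraries, bars their mean where all 3 had a peak, and "none" marks promoters without a peak in any library; Cbfb and Cbfa2t2 stand highest, Runx2 P1 has a peak in replicate 3 alone and the 4 Runx1t1 promoters have none.

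The alternative promoters were then compared within each Runx gene, to ask which of them carried the mark in KL cells. For each promoter the strongest peak within 1 kb of its starts was taken in each library, whether or not the peaks of the libraries overlapped. Of the 16 promoters of the members, 10 had a peak in all 3 libraries, 1 in a single library and 5 in none. The background, over the promoters of all protein-coding genes, is 30.7% with a peak in all 3 libraries (9969 of 32512).

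Runx2 (chr17:44495987-44814797, minus strand) carried the mark at P2. Its P2, 78.1 kb downstream of P1, had fold enrichments of 7.33, 6.39 and 8.66 on 21, 22 and 27 fragments. Its P1 had no peak in replicates 1 and 2 and a peak of 4.23 on 12 fragments in replicate 3. In replicate 3, the library with values at both, P2 stood above P1 by 1.03 on the log2 scale. With the missing peaks set to a fold enrichment of 1, P2 was higher in 3 of 3 libraries (2.19 ± 1.01, exact two-sided permutation p = 0.25, the smallest possible), and this size depends on the value set. The antisense gene Runx2os1 starts beside P2, and ChIP reads carry no strand by which to tell the starts apart.

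Runx1 (chr16:92601466-92826149, minus strand) carried the mark at both ends of its promoter interval. P1 had fold enrichments of 5.40, 4.80 and 7.27 on 25, 23 and 36 fragments (5.83 ± 1.29, SD, n = 3). The annotation has 2 further groups of coding starts, at 128.8 kb and 130.0 kb. The start at 128.8 kb had 6.22, 5.75 and 7.87 (6.61 ± 1.11), and the starts at 130.0 kb, which were taken as P2 because they are more numerous, were given 4.36, 3.48 and 6.26 (4.70 ± 1.42). The peak behind these values had its summit at 128.9 to 129.0 kb, next to the start at 128.8 kb, and reached the starts at 130.0 kb only through the window of 1 kb.

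The sign of the Runx1 comparison rested on which of the peaks near these starts was counted for P2. The starts at 130.0 kb stood below P1 in 3 of 3 libraries (log2 ratio −0.33 ± 0.13, exact two-sided permutation p = 0.25). With a promoter window of 2.5 kb and the same P2 starts, P2 stood above P1 in 3 of 3 libraries (0.19 ± 0.07, p = 0.25 by the same exact test), and joining starts within 2.5 kb, an alternative chosen after seeing the data, gave the same value. The size of the difference also depended on the measure and the threshold. By −log10 p, with the main window, the ratio was −0.65 ± 0.22. With −log10 q of at least 5 it was −0.93 ± 1.16, where the P2 peak of replicate 2 (−log10 q 3.34) no longer counted.

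Runx3 (chr4:135120652-135177990, plus strand) carried the mark at both promoters too. P2, 31.8 kb downstream, had 9.04, 8.44 and 11.1, in a peak of 1893 to 1970 bp, wider than the 1315 to 1451 bp at Cbfb. P1 had 5.46, 4.74 and 11.4. P2 was higher in replicates 1 and 2 by 0.73 and 0.83 on the log2 scale and level with P1 in replicate 3 (−0.04), a mean of 0.51 ± 0.48 (exact two-sided permutation p = 0.5). P1 of Runx3 was thus the promoter with the widest spread between libraries, and the long noncoding gene Gm16225 starts next to it. Its value in replicate 2 came from a separate peak. The peak that overlapped those of replicates 1 and 3 had 3.61 in replicate 2.

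Cbfa2t3 (chr8:122625141-122699109, minus strand), known as the corepressor of the Tal1 complex in haematopoietic progenitors, had weak peaks at both its promoters. The upstream start had 4.36, 4.97 and 5.11 and the start 20.4 kb downstream 4.78, 3.04 and 7.07, on 12 to 22 fragments. At the upstream start the replicate 2 peak was separate from the overlapping peaks of replicates 1 and 3. At the downstream start the peaks of replicates 1 and 2 did not overlap each other. Cbfa2t2 (chr2:154436481-154539356, plus strand) had its peak at the upstream start on 50, 45 and 61 fragments and none in any library at the start 74.1 kb downstream. Cbfb (chr8:105170674-105217989, plus strand) has a single coding promoter.

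Beyond promoters, Runx1 and Runx2 stood apart from their partners in the number of distal peaks, those over 2.5 kb from any annotated TSS. Runx1 had 15, 27 and 21 distal peaks inside the gene in replicates 1, 2 and 3, Runx2 9, 12 and 11, and Runx3 2, 4 and 2. Cbfb had 1, 0 and 0, Cbfa2t2 0, 1 and 0, Cbfa2t3 2, 0 and 1, and Runx1t1 0 in each. The counts of Runx1, Runx2 and the 4 partners did not overlap, whereas those of Runx3 overlapped those of Cbfa2t3.

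Gene length also differs between the members. Runx1 spans 224.7 kb and Runx2 318.8 kb, against 47.3 kb for Cbfb, 102.9 kb for Cbfa2t2 and 74.0 kb for Cbfa2t3. Per 100 kb of gene, Runx1 had 9.35 distal peaks, Runx3 4.65 and Runx2 3.35 (means of 3 libraries). Cbfa2t3 had 1.35, Cbfb 0.70 and Cbfa2t2 0.32. By this measure Runx2 stood below Runx3, and the 3 Runx genes stood above the partners. The Runx3 value rests on 2, 4 and 2 peaks, and 0 of its 7 distal regions inside the gene were found in all 3 libraries. No background over all genes was taken for this measure. Among the 847 protein-coding genes at least as long as Runx1 the median was 0 distal peaks, and 11 of them (1.30%), Runx1 included, had as many. By mean count Runx1 ranked 17, Runx2 69 and Runx3 486 among all 21911 genes.

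**Figure D2:**
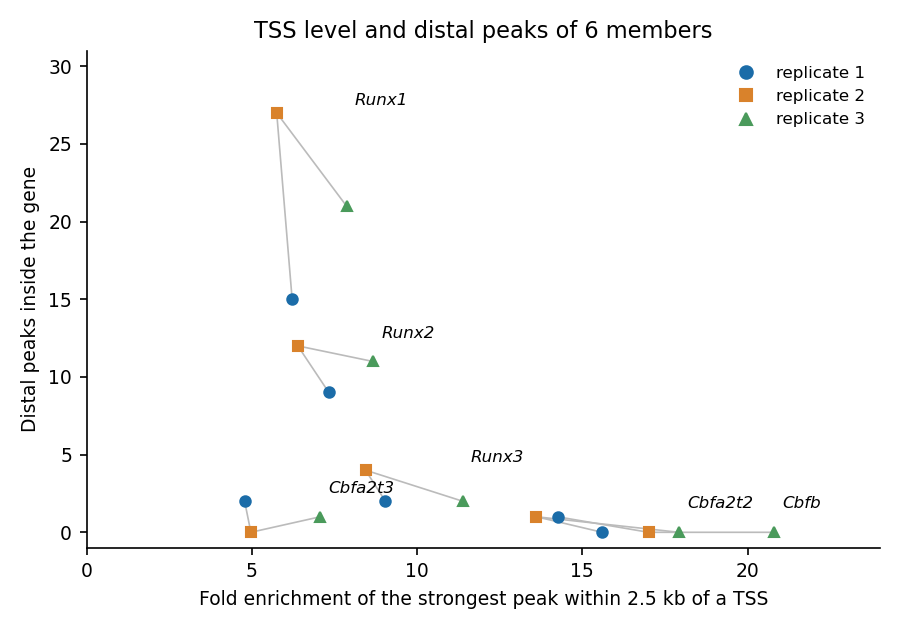
Number of distal peaks inside the gene (vertical axis) against fold enrichment of the strongest TSS-proximal peak (horizontal axis) for the 6 members with peaks; each point is a library and grey lines join the libraries of a gene. Runx1 and Runx2 lie at 9 to 27 distal peaks with fold enrichments under 10, and Cbfb and Cbfa2t2 lie at 0 or 1 distal peak with fold enrichments above 13.

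Counting the 50 kb flanks as well, the 7 loci held 70, 89 and 82 peaks. Runx1 had 22, 33 and 28 of them, Runx2 15, 17 and 19, Runx3 11, 16 and 12, Cbfa2t3 11, 12 and 12, Cbfb 6, 5 and 5 and Cbfa2t2 5, 6 and 6. The kinds of peak differed between loci. At Runx3 most were distal in the flanks (7, 9 and 7), and at Cbfb 4 in each library lay at the start of another gene, of which B3gnt9, Tradd with Fbxl8, and the noncoding D230025D16Rik were found in all 3 libraries. Peaks near the 50 kb limit show how the rule divides them. Those just inside were at Cbfa2t3, 48.3 kb from the gene (fold enrichment 9.90 and 8.78 in replicates 1 and 3), and those just outside were at Runx3, 50.1 and 50.2 kb away (5.59 and 5.95).

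**Figure D3:**
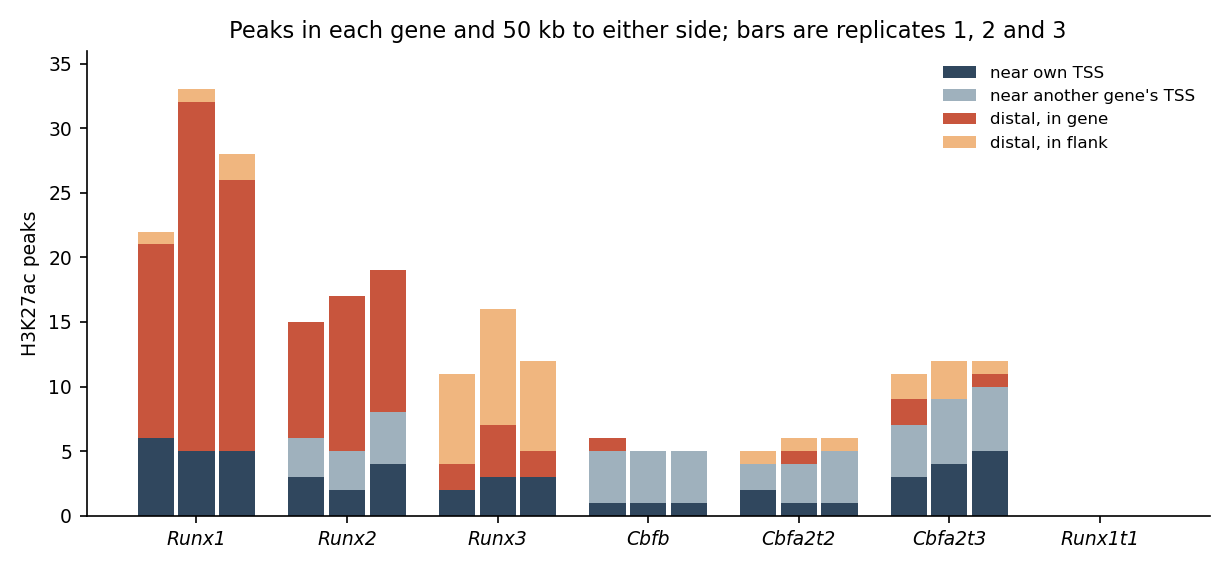
Stacked bars count the H3K27ac peaks of each member's gene and 50 kb flanks in replicates 1, 2 and 3 (left to right), divided into peaks near the gene's own TSS, near another gene's TSS, distal inside the gene and distal in the flanks. Runx1 has the most peaks (22 to 33), mostly distal inside the gene, Runx3 has mostly flank peaks and Runx1t1 has none.

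Of the 127 merged regions, 37 (29.1%, against 41.3% of all merged regions) were found in all 3 libraries, 25 in 2 and 65 in 1. TSS-proximal regions recurred more often than distal ones, 21 of 43 (48.8%) against 16 of 84 (19.0%). The background over all merged regions is 59.6% for TSS-proximal and 16.7% for distal regions, so the members' TSS-proximal regions recurred less often than the background and their distal regions at a share near it, with no test of either. Single peaks at distal positions therefore often rest on 1 library, and the regions named below are those found in all 3. A merged region found in all 3 can join peaks that do not all overlap each other.

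At Runx1, 9 distal regions were found in all 3 libraries, 8 of them inside the gene. The strongest by mean had its summit at 24.9 kb, with fold enrichments of 5.96, 4.75 and 8.36 on 22, 18 and 33 fragments. It was counted as the +23 kb enhancer region because it overlapped the stretch from 22 to 25 kb downstream of P1. Whether it is the known enhancer was not tested. Against P1 its log2 ratios were 0.14, −0.02 and 0.20 (0.11 ± 0.11, exact two-sided permutation p = 0.5). The region at 24.9 kb and P1 thus did not differ beyond their spread. The second peak, at 23.8 kb, had 3.63 in replicate 1 and 3.51 in replicate 3 and was not called in replicate 2. With the region narrowed to 22 to 24 kb, chosen after seeing the data, only this second peak counted and the ratio turned to −1.30 (p = 0.25 by the exact test). Measured by −log10 p, the ratio was −0.064.

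The next strongest distal regions of Runx1 lay in other parts of the gene. The region at 205.1 kb (chr16:92620436-92621374, intron 6) had 4.40, 5.09 and 5.43. The peaks of replicates 1 and 2 there did not overlap each other and were joined by the wider peak of replicate 3. The region at 110.8 kb (chr16:92714535-92715605, intron 2) had 5.17, 4.75 and 4.72. The region at 110.8 kb is in a row with those at 99.4, 109.9 and 115.5 kb, upstream of the start at 128.8 kb. In the region at 115.5 kb the peaks of replicates 2 and 3 did not overlap each other. The region at −41.6 kb is the distal region of the flank found in all 3 libraries (4.01 ± 0.08).

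**Figure D4:**
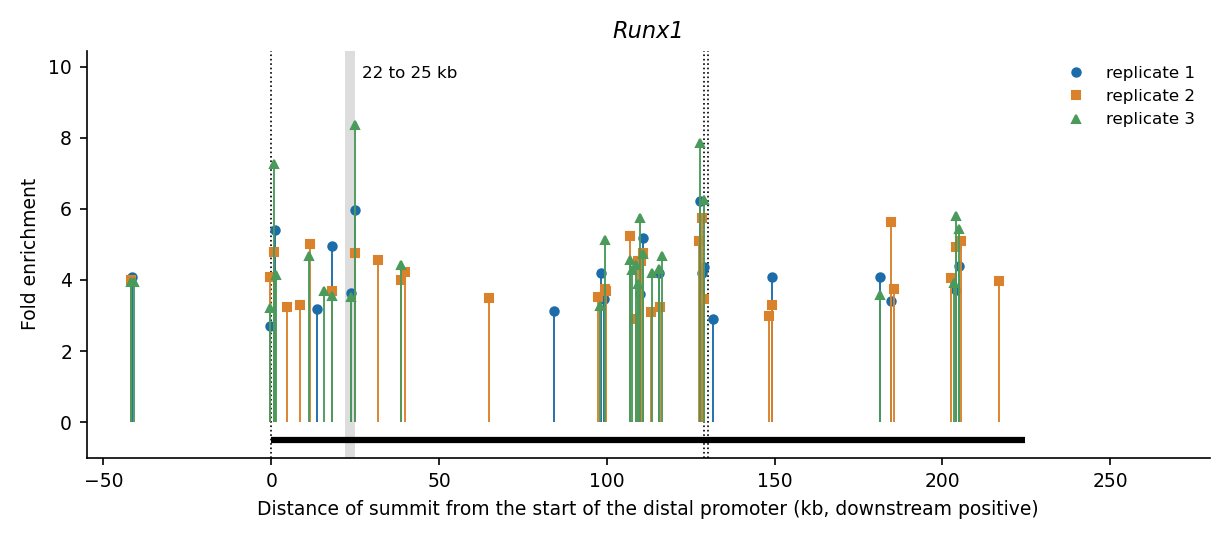
Fold enrichment of every H3K27ac peak at Runx1 by the distance of its summit from the P1 start in kb (downstream positive), for the 3 libraries; the black bar is the gene, dotted lines are promoter starts and the grey band spans 22 to 25 kb. Peaks gather at P1, at the band, from 97 to 116 kb, at the proximal starts and from 181 to 206 kb, and the band holds the highest distal value of each of replicates 1 and 3.

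At Runx2, 3 distal regions were found in all 3 libraries, all downstream of P2. The strongest, at 200.9 kb (chr17:44613601-44615863, intron 7 of Runx2-202), was 2263 bp wide after merging and held separate peaks in each library. Its highest values were 5.52, 7.78 and 5.90 (6.40 ± 1.21, against 7.46 ± 1.14 at P2). They came from summits at 199.2, 200.9 and 200.2 kb in replicates 1, 2 and 3, so they do not describe a single peak. Those at 160.5 kb and 142.2 kb averaged 4.56 ± 1.41 and 4.13 ± 1.10. The highest value of the Runx2 window was at none of its own elements. It was the start of Supt3, which encodes a subunit of the SAGA coactivator complex and starts inside intron 2 of Runx2, with 10.1, 8.25 and 12.3.

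At Runx3, 2 distal regions were found in all 3 libraries, both past the 3′ end of the gene. The region at 25.9 kb past the end (chr4:135203352-135204490) had 11.4, 6.50 and 4.92, and the region at 28.1 kb past the end (chr4:135205266-135206375) had 9.43, 5.23 and 9.83. Their means, 7.61 ± 3.38 and 8.16 ± 2.55, were the highest of the 16 distal regions of the members found in all 3 libraries, and their order changed between libraries. Inside the gene, 0 of 7 distal regions were found in all 3. Which gene these regions act on was not measured.

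**Figure D5:**
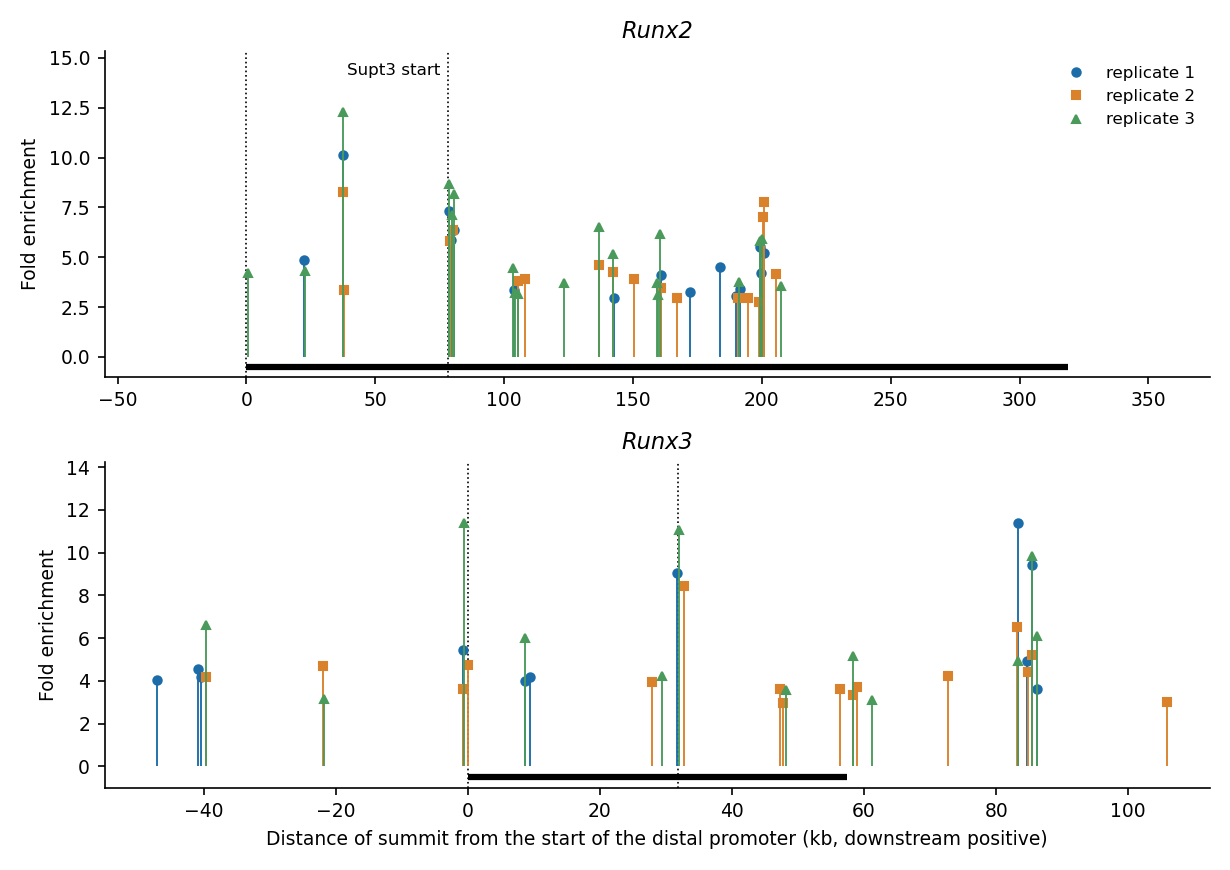
Fold enrichment of every H3K27ac peak at Runx2 (top) and Runx3 (bottom) by the distance of its summit from the P1 start in kb, for the 3 libraries; black bars are the genes and dotted lines the promoter starts. Runx2 peaks end at about 207 kb within a gene of 318.8 kb and are highest at the Supt3 start, and Runx3 has its strongest distal peaks beyond the gene at 83 to 86 kb.

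The corepressor genes had few distal regions. Cbfa2t2 had 1 in all 3 libraries, 35.2 kb past its end (chr2:154574359-154574648), with 3.89, 7.25 and 6.55, and Cbfa2t3 had 1, 31.5 kb past its end (chr8:122593429-122594094), with 3.41, 4.30 and 5.85. The strongest other region of the Cbfa2t2 window was the start of E2f1, a cell-cycle transcription factor, at 9.59, 15.0 and 11.9. In the Cbfa2t3 window it was that of Aprt, an enzyme of purine salvage, at 9.90, 9.59 and 8.78.

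The motif letters were counted in 300 bases at the summit of the 37 member regions found in all 3 libraries, on both strands, with matches of different motifs allowed to share bases. The RUNX motif stood in 2 of them (5.41%), the Runx1 region at 99.4 kb and the Runx3 P1 region, against 12.7% of all regions found in all 3 libraries. The GATA motif stood in 5 (13.5% against 14.6%), the ETS motif in 30 (81.1% against 71.8%) and the E-box (CANNTG) in 26 (70.3% against 63.9%). Of the member regions 16 of 37 were distal, against 2460 of 14280, so the pooled shares also reflect this mix. Among distal regions the E-box share was 81.25% against 79.9%, ETS 81.25% against 74.5% and RUNX 6.25% against 22.2%. GATA stood in 4 of the 16, against 25.4%. Among TSS-proximal regions the shares were 61.9% against 60.6% (E-box), 80.95% against 71.25% (ETS), 4.76% against 10.7% (RUNX) and 4.76% against 12.3% (GATA). These shares were not tested.

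Super-enhancers, long clusters of strong peaks, were called by stitching peaks within 12.5 kb, ranking the stitched regions by summed fold enrichment times width, and taking those beyond the tangent of slope 1 to the ranked curve after scaling. With all peaks used, 0 of the 7 members were assigned one in at least 2 libraries, where the background is 8.24% of genes. Runx1 was assigned one in replicate 3 alone, at rank 978 of 1190 super-enhancers, and ranked 1642 and 1345 in replicates 1 and 2, below the 1383 and 1083 called there. Without replicate 3 no member had any.

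The call depended on the peaks at starts. With peaks within 2.5 kb of a TSS left out, 3 of the 7 members, the Runx genes, were assigned a super-enhancer in at least 2 libraries, and the background fell to 1.30% of genes. Runx1 ranked 175, 89 and 82 of the 4247, 4943 and 3969 stitched regions, with a stretch of 17.8 to 18.8 kb centred about 107 kb from P1, and Runx2 ranked 163, 98 and 209. Both were called in all 3 libraries. Runx3 ranked 80, 501 and 135, with the regions past its 3′ end, and was called in replicates 1 and 3. Cbfb, Cbfa2t2, Cbfa2t3 and Runx1t1 were called in none.

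The other genes of the pathway were read from lists of cofactors and of known targets. All 18 genes of Runx and ETO cofactors were marked at a TSS in every library, beside the 43.9% of all genes. The highest was Ep300, an acetyltransferase that itself deposits H3K27ac (31.4 ± 2.34), and the lowest Tle1, a Groucho corepressor (4.27 ± 0.84). The core corepressor Ncor1 (22.4 ± 4.50) and the E protein gene Tcf12 (24.2 ± 4.29), partners of the ETO proteins, had higher means than every member.

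Of 14 myeloid genes known as RUNX1 targets, 9 had such a peak in all 3 libraries. The highest was Kit (9.77 ± 0.16), the receptor used to sort the cells, and the lowest Itga2b, an integrin of megakaryocytes (2.98 ± 0.33). Csf2 and Il3, cytokine genes of activated lymphocytes, and Gfi1b, a repressor of erythroid and megakaryocytic cells, had none in any library, and Elane, a neutrophil protease, had a peak of 3.34 in replicate 3 alone. Of 10 bone genes known as RUNX2 targets, among them Sp7 and Bglap, 0 had one in any library, while Runx2 itself had its peak in all 3.

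The genes most like Runx1 were sought by the distance between profiles of 6 values, the log2 TSS-proximal fold enrichment and log2 of 1 plus the distal peaks in the gene in each of the 3 libraries. The nearest were Gna12, a G-protein subunit (distance 0.647, fold enrichment 7.32 ± 1.97, 15, 18 and 19 distal peaks), Galnt2, a glycosyltransferase (0.771, 5.92 ± 0.81, 22, 22 and 18) and Ptpre, a tyrosine phosphatase (0.793, 7.02 ± 1.20, 11, 21 and 15).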

How the data were processed

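H3K27ac ChIP-seq (antibody Abcam AB4729) peak lists of 3 BcorΔE9-10 KL libraries were analysed; the methods describe separate mice, which the labels do not pair with libraries, so the spread may be partly technical. The authors trimmed single-end reads with cutadapt 1.7, mapped them with bowtie2 (GRCm38), discarded duplicates and ran MACS2 2.1.1 on each library separately; control and settings are not given in the sources used here. The deposited values are a fold enrichment (a ratio to local background), −log10 p-values and q-values and a score, which was not used. The largest q was 0.0499. Rows sharing an interval were taken as 1 peak at the highest fold enrichment, and 11 to 14 rows per library on scaffolds were left out. Fragments at the summit were solved from fold enrichment and Poisson p (100% of peaks within 0.01); the depth assumes 200 bp fragments and covers counting error only. Genes are from GENCODE M21. Ratios were tested with an exact two-sided sign-flip test in Python 3.11.15 (numpy 2.4.6, pandas 2.3.3, scipy 1.17.1), checked on simulated data. Members and gene lists were chosen with earlier results of these data known. Named were the members, their promoters, at most 3 distal regions per member found in all 3 libraries by mean fold enrichment, starts of other genes in the windows, the ends of each list and the 3 genes most like Runx1; Ncor1 and Tcf12 were added after their values were seen. The other 19 samples were not analysed here, and some genes and sequences are not reported here.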

Additional observations from a re-analysis of the deposited data

How the results depend on the processing

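With −log10 q of at least 5, the mean number of peaks at the members went from 80.3 to 36.3 and the regions found in all libraries from 37 to 18. Those regions numbered 24 with flanks of 10 kb and 21 with a reciprocal overlap of 50%. Members with a super-enhancer in at least 2 libraries numbered 1 (Cbfb) with stitching within 5 kb, against 0. They numbered 3 (the Runx genes) with peaks within 2.5 kb of a TSS left out. With stitching within 5 kb Runx1 was called in 0 libraries. The stitched region of Cbfb in the main setting was 1 peak in each library, not a cluster. The GATA motif stood in 3 member regions in place of 5 with 200 bases, a shorter window. The log2 ratio of the Runx1 +23 kb region to P1 turned from 0.11 to −0.064 by −log10 p and to −1.30 with 22 to 24 kb. The log2 ratio of Runx1 P2 to P1 turned from −0.33 to 0.19 with a promoter window of 2.5 kb and also with starts within 2.5 kb joined. It kept its sign at −0.65 by −log10 p and at −0.93 with −log10 q of at least 5. For the reversals by −log10 p, the cause was not tested; the others change which peaks count. The 22 to 24 kb window and the joined starts were chosen after seeing the data. The 6 members with a TSS-proximal peak in all libraries remained 6 in number under each alternative run.

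Leaving out 1 replicate at a time, the peaks ranged from 76.0 to 85.5 and the regions from 40 to 49, and no ratio changed sign. No paired analysis was possible because the libraries form a single group, with no second group whose replicate numbers could be matched; the ratios compare loci within a library. With 3 libraries the exact sign-flip test cannot give a p below 0.25, and peaks under about 8 fragments at the summit are below what these lists can show.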
